A study of Arabidopsis thaliana x Arabidopsis lyrata and Arabidopsis thaliana x Arabidopsis halleri with 18 samples.

Results

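The response of an F1 hybrid between Arabidopsis thaliana Col-0 and Arabidopsis lyrata MN47 to 1 h of dehydration was read from 6 of the 18 RNA-seq libraries of the series, 3 dehydrated plants against 3 plants in standard conditions. All plants were 4 weeks old and had been raised on agar medium with 1% sucrose at 22 °C in 16 h of light and 8 h of darkness. Dehydrated plants were lifted out of the agar and left in plastic dishes at 22 °C in dim light, whereas the standard plants stayed in non-stressful growth at 22 °C, so that water loss, lifting and dim light came together and cannot be told apart in this contrast. Each library holds RNA from the whole aerial part of 1 hybrid plant, per the labels' protocols, although the standard material is also described there as leaf samples. The remaining groups are cold plants of the same cross, kept for 1 h at 4 °C in dim light, and the same treatments of an F1 hybrid of Col-0 with Arabidopsis halleri, with 3 plants a group. The second allele of the lyrata-labelled files is headed as the halleri allele and the reverse holds for the other hybrid, so the plants are called lyrata-labelled and halleri-labelled here and the second allele is called non-thaliana.

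Expression of a gene is the sum of its thaliana and non-thaliana values, scaled between libraries, and is called its value below. A gene was tested if its value was 10 or more in at least 3 of the 6 libraries, which kept 11556 of the 16419 genes in the files. Differences were tested with limma on log2(value + 2), and a gene is called, or is said to have risen or fallen, at a Benjamini-Hochberg adjusted p under 0.05. Fold changes on this scale understate the change of genes with low values.

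Plants that lose water make abscisic acid (ABA), which closes the stomata and switches on protective genes. The hormone binds PYR/PYL receptors, the receptors then block clade A PP2C phosphatases, and the kinases and transcription factors that these phosphatases hold back become active. A second route, through DREB2 factors that bind a short dehydration response element, works partly without the hormone, and the removal and wilting of a plant also set off touch, wound and jasmonate genes within minutes. Expression of many of these genes also follows the circadian clock.

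Library totals as deposited were nearly equal, from 1524104 to 1531268 over the 18 libraries, because the authors had scaled them. Low whole numbers are missing from dehydration replicate 1 (19 of the 59 looked at) and from replicate 3 (3 of 59), as multiplication of a smaller library leaves them, which puts the reads behind replicate 1 near 1021156 and those behind replicate 3 near 1419688. No such gaps appear in dehydration replicate 2 or in the standard plants. Dehydration replicate 2 gave 61.27% of its reads to the thaliana allele, while the other 5 libraries gave 49.12% to 51.09%. Standard replicate 1 had the lowest scaling factor, 0.7724, against 0.9306 to 1.059 in the other 5. Leaf identity was clear, with the 22 nuclear photosynthesis genes summing to 141855 to 178518 in dehydrated and 180071 to 244529 in standard plants. Root markers summed to 953, 425 and 3089 in dehydration replicates 1, 2 and 3 and to 169, 352 and 415 in the standard plants, most of it from PYK10. Of the 13 in the files, only PLT2 and COBL9 were at 0 in all 6 libraries, and the others were above 0 in at least 1. Floral and shoot apex markers summed to at most 1.99 in dehydrated plants and to 12.9, 17.9 and 32 in standard plants, where the meristem gene STM read 5.18, 13.2 and 21.

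Dehydration changed 50 of the 11556 genes (0.433%), of which 38 were higher (0.329%) and 12 lower (0.104%). A further measure, an unadjusted p under 0.05, was met by 2114 genes (18.3%), 1128 of them higher (9.76%) and 986 lower (8.53%). The 3 dehydrated plants lay above all 3 standard plants for 1267 genes (11%) and below them for 1436 (12.4%). Calls rested on individual plants. Without dehydration replicate 2, whose allele share stands apart, 6 genes were called, 3 of them among the 50. Leaving out dehydration replicate 1 or standard replicate 3 left 0 calls, with 1295 and 2011 genes at an unadjusted p under 0.05. Leaving out standard replicate 1 left 18, with 18 higher and 0 lower, 9 of them among the 50. Leaving out dehydration replicate 3 gave 200. With the spread estimated from these 6 libraries alone, limma called 0 genes and 1745 had an unadjusted p under 0.05. The gene lists named below have 287 genes in the files, not all of them tested, and held 8 of the 50 called genes. Without dehydration replicate 1, dehydration replicate 2 or standard replicate 3, 0 list members were called. Without standard replicates 1 and 2 there were 2 and 6, beside 18 and 48 of all 11556 genes. Without dehydration replicate 3 there were 32, beside 200 of the 11556. The lists were chosen with earlier results of these data known, so these counts carry no test. All 50 called genes kept their direction in every setting that tested them, and 0 were called in all of those settings. Apart from DIP2, no called gene had overlapping groups. Leaving out a plant could therefore not turn their direction, and its constancy is no support for the calls.

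**Figure D1:**
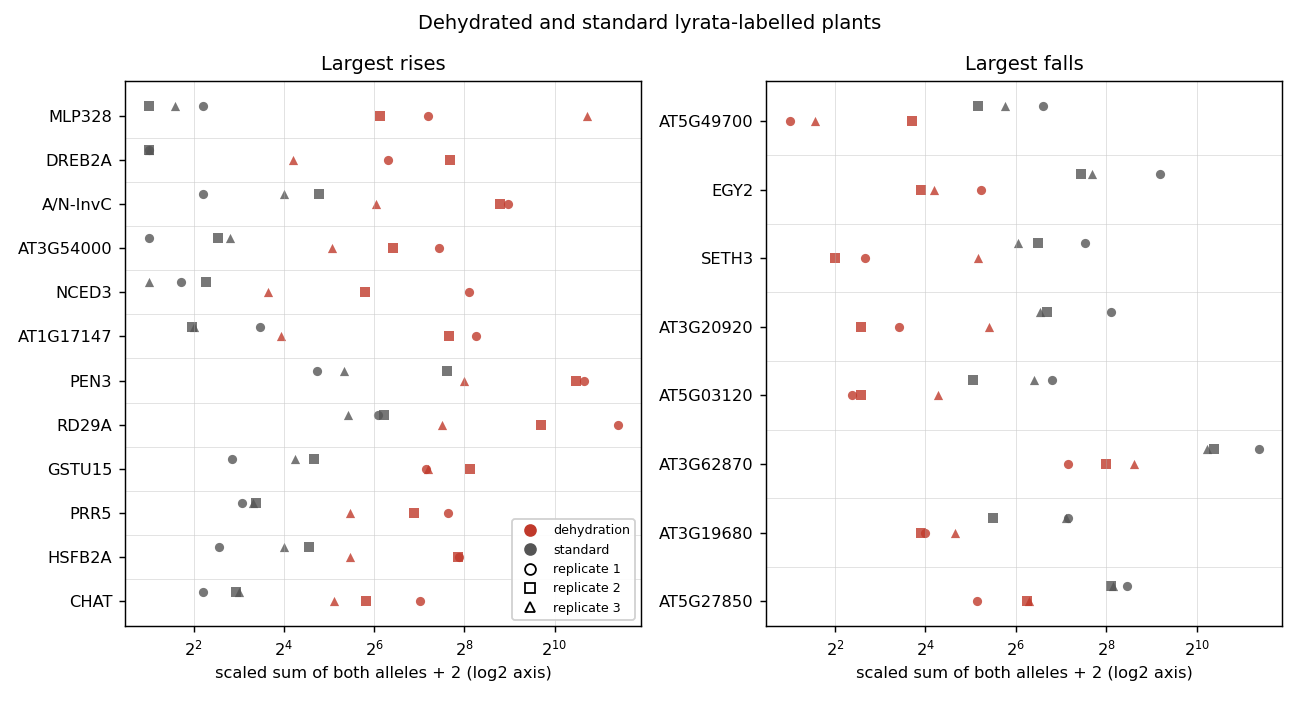
Value of both alleles + 2 on a log2 axis (x) in each dehydrated (red) and standard (grey) lyrata-labelled plant for the 12 largest rises and the 8 falls named here (y), with replicate numbers as symbols. In the left panel dehydration replicate 3 lies closest to the standard plants for most genes. MLP328, with 1678.4 in that plant, and GSTU15 are the exceptions.

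Of the genes that supply the hormone, NCED3 rose. NCED3 (AT3G14440), the dioxygenase of the committed step of ABA synthesis, read 272, 53.9 and 10.5 in dehydration replicates 1, 2 and 3 against 1.29, 2.83 and 0 in the standard plants. All 3 dehydrated plants lay above all 3 standard plants, and the highest dehydrated plant was 25.9-fold above the lowest. The log2 fold change was 4.19 ± 0.79 (SE), adjusted p = 0.031. ABA1, the zeaxanthin epoxidase that works upstream of NCED3, read 3406.2, 1650.7 and 658 against 292, 530 and 414, without overlap, and missed the threshold (log2 difference 1.95, adjusted p = 0.11). CYP707A2, which breaks ABA down, likewise did not overlap, with 98.9, 79.8 and 29.7 against 9.06, 6.61 and 26 (adjusted p = 0.091). The oxidoreductase ABA2, downstream of NCED3, lay the other way, at 23.7 to 41.9 in dehydrated and 64.2 to 155 in standard plants (adjusted p = 0.14). Of the 13 supply and breakdown genes in the files, 7 were tested, NCED3 alone was called, beside 0.433% of all genes, and their median log2 fold change was 1.06 against 0.01 over all genes tested. That median moved to 0.13 without standard replicate 1, to 0.66 without dehydration replicate 3, and to 1.65 and 1.81 without standard replicates 2 and 3.

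ABA receptors and the SnRK2 kinases downstream had no called member among the 11 tested, and their median log2 fold change was -0.5, or -0.95 without standard replicate 3. The receptor PYL4 read 4.3, 44.9 and 52.7 in dehydrated plants against 1165.7, 96.3 and 145 in standard plants, and PYL5 read 19.4, 6.98 and 8.63 against 181, 68 and 199. Neither gene's groups overlapped, and neither passed the test (log2 differences of -3.34 and -3.43, adjusted p = 0.11 and 0.1). PYR1 was at 45.9 to 64.3 in dehydrated and 66.1 to 211 in standard plants (adjusted p = 0.24).

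Phosphatases of clade A, the brakes that ABA signalling itself induces, had 0 calls among 6 tested members. At an unadjusted p under 0.05 were 2, both higher, beside 9.76% of all genes. PP2CA came closest, with 786, 393 and 146 against 71.2, 62.3 and 54 (log2 difference 2.48 ± 0.57, SE, adjusted p = 0.059). Summed over the 8 members in the files, the family read 1730.5, 686 and 314 in dehydration replicates 1, 2 and 3 and 334, 228 and 270 in the standard plants. Replicate 1 was thus far above, replicate 2 above and replicate 3 inside the range of the standard plants.

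DREB2A (AT5G05410), the factor that binds the dehydration response element, read 77.4, 202 and 16.3 in the dehydrated plants, whereas each standard plant has it listed at 0 (adjusted p = 0.018). No fold is given against a group at 0. Here replicate 2 was highest, whereas NCED3 was highest in replicate 1. Among the 11 drought transcription factors tested, DREB2A alone was called, beside 0.433% of all genes. RD26, a NAC factor of the ABA pathway, read 467 in replicate 1 but 46.9 and 30.7 in the others, against 20.8 to 31 in standard plants (adjusted p = 0.27). The bZIP factor ABF2 read 200, 76.8 and 120 against 133, 32.1 and 18 (adjusted p = 0.23). The list's median log2 fold change was 1.00, and 0.61 and 0.63 without dehydration replicates 1 and 2.

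HSFB2A (AT5G62020), a class B heat shock factor, rose from 3.88, 21.7 and 14 to 233, 229 and 42.2, a log2 fold change of 3.36 ± 0.67 (SE, adjusted p = 0.037). It was the only called member of 7 tested heat shock factors and chaperones, beside 0.433% of all genes. HSP101, the chaperone that dissolves aggregates, read 30.1, 19.9 and 21.1 against 7.76, 17 and 6 (adjusted p = 0.42). The median of the list was 0.85.

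Protective proteins had 1 called member of 14 tested, RD29A, beside 0.433% of all genes. Their median was 1.51, or 0.9 without dehydration replicate 1. RD29A (AT5G52310, LTI78 in the annotation) is the classical reporter of water and cold stress, and its promoter is known for DREB2A and CBF binding. It read 2702.8, 832 and 179 in dehydration replicates 1, 2 and 3 against 66, 72.7 and 41 in standard plants. Each dehydrated plant was above each standard plant, by a wide margin in replicates 1 and 2 and a narrow one in replicate 3. The log2 fold change was 3.62 ± 0.77 (SE, adjusted p = 0.045). RCI2A, a small membrane protein of cold and salt stress, read 330, 470 and 638 against 124, 32.1 and 56 and had its highest value in replicate 3 (adjusted p = 0.081). The dehydrin RAB18 overlapped, with 381, 186 and 243 against 347, 32.1 and 22 (adjusted p = 0.31), because standard replicate 1 was high.

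The 300 bases before the annotated transcript start of RD29A are printed because they carry the dehydration response element named above. They lie at chr5:21240417-21240716 on the plus strand of TAIR10.1, credited to RefSeq. Both strands were searched for ACCGAC and GCCGAC, and capitals mark the matches, all of them ACCGAC on the printed strand.
RD29A: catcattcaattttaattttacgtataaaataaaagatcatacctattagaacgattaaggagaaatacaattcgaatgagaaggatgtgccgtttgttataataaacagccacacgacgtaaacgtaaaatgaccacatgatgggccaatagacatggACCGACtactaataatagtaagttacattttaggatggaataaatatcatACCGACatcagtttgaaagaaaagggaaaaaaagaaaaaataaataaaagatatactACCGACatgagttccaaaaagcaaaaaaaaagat
The window holds 3 copies, starting 141, 91 and 34 bases before the transcript start. This motif stands in 9.87% of the 11548 windows of tested genes, in 7 of the 38 windows of genes that rose (18.4%) and in 1 of the 12 of genes that fell. It is from the thaliana reference and says nothing of the other allele's promoter.

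Sugar and solute genes had 1 called member of 13, beside 0.433% of all genes. A/N-InvC (AT3G06500), an alkaline or neutral invertase that splits sucrose, read 502, 444 and 64.3 against 2.59, 25.5 and 14, a log2 fold change of 4.28 ± 0.73 (SE, adjusted p = 0.018). GolS2, the galactinol synthase of raffinose production, read 106, 24.9 and 29.7 against 5.18, 20.8 and 0 (adjusted p = 0.12). P5CS2, a proline synthesis enzyme, read 152, 178 and 85.4 against 10.4, 49.1 and 65 (adjusted p = 0.12), and its better known stress-induced relative P5CS1 overlapped (60.4 to 72.1 against 25 to 149, adjusted p = 0.86). Of the 13, 4 had an unadjusted p under 0.05 and a higher value, beside 9.76% of all genes, and 0 a lower one. The list's median of 0.28 depended on single plants, from -0.2 without standard replicate 3 and 0.01 without dehydration replicate 2 to 1 without standard replicate 2.

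Rapid regulators of touch, wounding and defence, early cold regulators and jasmonate genes set the dehydrated plants apart from one another. The 23 touch, wound and defence genes in the files summed to 5909, 5532.4 and 813 in dehydration replicates 1, 2 and 3, and to 851, 685 and 939 in the standard plants. Early cold regulators summed to 1206.7, 2396.7 and 203 against 208, 113 and 124, and jasmonate genes to 6529.6, 4196.9 and 1835.7 against 1729.8, 1526.3 and 1363.3. Replicates 1 and 2 were far above the standard plants on all 3 sums, and replicate 3 lay inside their range on the first and second and just above it on the jasmonate sum. On the early cold sum only standard replicate 1 was above replicate 3. In replicate 3, 3 of the 6 early cold genes tested lay above all standard plants and 1 below them, beside 25.8% of all genes each way. Of 20 tested touch, wound and defence genes, 0 were called and 12 had an unadjusted p under 0.05, all higher, beside 9.76% of all genes. The median log2 fold change was 1.82 for this list, 2.87 for the 6 early cold genes tested and 1.46 for the 14 jasmonate genes, none of which was called. In the same order these medians were 1.08, 1.79 and 0.98 without dehydration replicate 2 and 2.61, 4.06 and 2.25 without replicate 3, and the jasmonate median was 0.92 without replicate 1.

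Members of these lists repeated the order of the plants. The zinc finger gene SZF1 read 373, 999 and 48 against 16.8, 24.5 and 27 (adjusted p = 0.06), and ZAT10, a zinc finger repressor of drought and salt stress, read 113, 248 and 6.71 against 5.66 to 19.4 (adjusted p = 0.18). ORA47, a factor that induces jasmonate synthesis, was at 312 and 153 in replicates 1 and 2 and at 3.84 in replicate 3, against 0 to 14.2 in standard plants (adjusted p = 0.12). JAZ1, a repressor that jasmonate induces, read 1032.5, 634 and 23 against 18 to 45.3 (adjusted p = 0.14). WRKY40 read 683, 166 and 11.5 against 3.78 to 13 (adjusted p = 0.087). In the last 4 genes replicate 3 lay inside the range of the standard plants. CBF2, a regulator of the cold response, failed the filter because only replicates 1 and 2 passed 10, with 81.7, 40.9 and 0.959 and 0 in all standard plants. Without dehydration replicate 3, 9 of the 20 touch, wound and defence genes, 5 of the 14 jasmonate genes and 4 of the 6 early cold genes were called, all higher, beside 1.3% of all genes called higher in that setting. Without replicate 2 limma called 0 of each, with 6, 4 and 2 at an unadjusted p under 0.05, all higher, beside 901 of all 11556 genes. Without replicate 1 it likewise called 0 of each, with 6, 2 and 3, all higher, beside 715 of the 11556. What set replicate 3 apart was not tested, since the labels describe all 3 plants alike.

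PEN3 (AT1G59870), a plasma membrane transporter of pathogen defence, did pass, with 1616.5, 1425.2 and 252 against 24.6, 194 and 38 and a log2 fold change of 3.82 ± 0.75 (SE, adjusted p = 0.037). CHAT (AT3G03480), which makes the wound volatile hexenyl acetate, read 127, 54.9 and 32.6 against 2.59, 5.66 and 6 (log2 fold change 3.27 ± 0.56, SE, adjusted p = 0.018). AT1G17147, annotated as a VQ motif protein, read 304, 199 and 13.4 against 9.06, 1.89 and 2 (4.15 ± 0.81, SE, adjusted p = 0.037). These 3 genes share the order of the plants seen in the lists, with replicate 3 lowest. Over the 38 genes that rose, replicate 1 was the highest dehydrated plant in 28 and replicate 3 the lowest in 26.

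**Figure D2:**
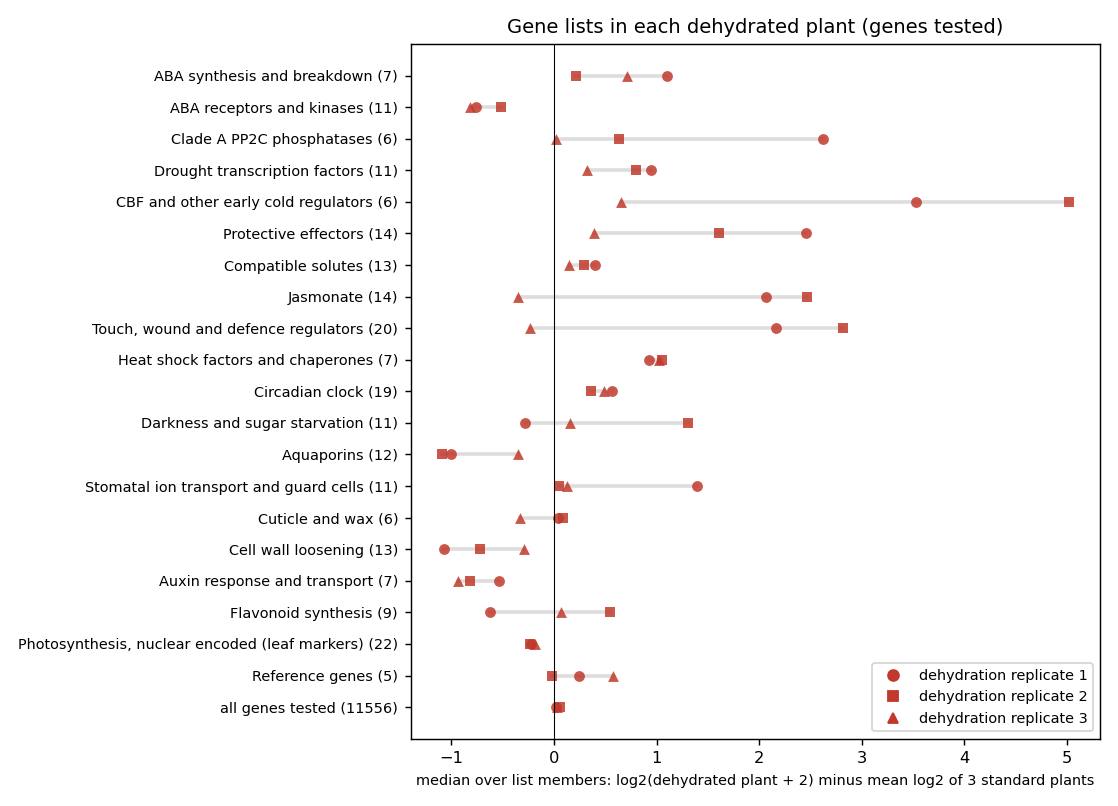
Median over the tested members of each gene list (number in brackets, y) of log2(value + 2) in a dehydrated plant minus the mean over the 3 standard plants (x), with 1 symbol a plant. Replicate 3 lies near 0 for PP2C (0.02), jasmonate (-0.35) and touch, wound and defence genes (-0.23), where replicates 1 and 2 reach 0.63 to 2.82, while all genes together lie at 0.02 to 0.06. Early cold regulators lie at 3.53, 5.02 and 0.65 in replicates 1, 2 and 3.

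Clock genes had the most called members of any list. Of 19 members tested 3 were called, PRR9, PRR5 and LUX, all higher, beside 0.329% of all genes called higher, and 0 were called without dehydration replicate 1, dehydration replicate 2 or standard replicate 3. At an unadjusted p under 0.05, 6 members were higher and 2 lower, beside 9.76% and 8.53% of all genes. The list's median was 0.5, and 0.11 without standard replicate 1. Of the 19, 10, 9 and 8 lay above all standard plants in dehydration replicates 1, 2 and 3 (52.6%, 47.4% and 42.1%), beside 29.6%, 27.6% and 25.8% of all genes. Below them lay 4, 3 and 6 (21.1%, 15.8% and 31.6%), beside 31.1%, 27.6% and 25.8% of all genes. PRR5 (AT5G24470), a repressor active in the afternoon, read 197, 117 and 42.2 against 6.47, 8.5 and 8, a log2 fold change of 3.4 ± 0.55 (SE, adjusted p = 0.018). PRR9 (AT2G46790), its morning relative, read 397, 118 and 93 against 14.2, 31.1 and 31 (2.67 ± 0.53, SE, adjusted p = 0.037). LUX (AT3G46640, PCL1 in the annotation), a DNA-binding part of the evening complex, read 43, 25.9 and 26.9 against 3.88, 2.83 and 1 (2.91 ± 0.61, SE, adjusted p = 0.042). For each of the 3 genes the dehydrated plants did not overlap the standard plants, and for LUX they were close together.

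ELF4, LUX's partner in the evening complex, read 20.4, 15 and 20.1 against 3.88, 0 and 1 and just missed the threshold (log2 difference 2.63, adjusted p = 0.059). TOC1 read 253, 70.8 and 41.2 against 22, 8.5 and 17 and GI read 139, 73.8 and 99.7 against 23.3, 60.4 and 30, both without overlap (adjusted p = 0.15 each). The morning factors lay the other way or overlapped. CCA1 read 281, 87.8 and 20.1 against 219 to 291 (adjusted p = 0.25), and LHY read 47.3, 148 and 25.9 against 147 to 261 (adjusted p = 0.21). Cold plants, which also stood in dim light, had PRR5 at 228, 286 and 171, LUX at 61, 84.5 and 65.8 and PRR9 at 109, 97.7 and 83.4, so that the 3 called clock genes were above all standard plants there too. Hour of harvest is not given in the labels, and its part in these values was not tested.

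**Figure D3:**
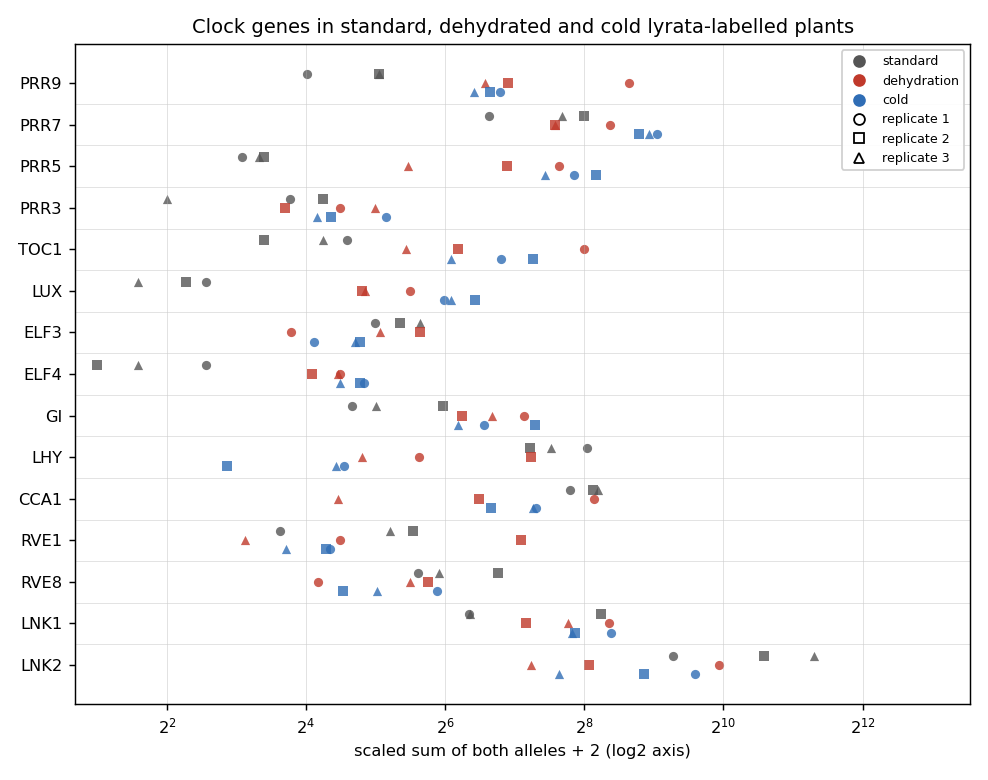
Value of both alleles + 2 on a log2 axis (x) of 15 of the tested clock genes (y) in standard (grey), dehydrated (red) and cold (blue) lyrata-labelled plants, with replicate numbers as symbols. PRR9, PRR5, LUX and ELF4 lie above the standard plants in every dehydrated and every cold plant, and LHY lies below them in every cold plant, at 5.28 to 21.4.

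Windows of the called clock genes are printed because the evening element AAATATCT and the ABA response element core ACGTG are the motifs through which the clock and ABA are known to act. Capitals mark the evening element in LUX and PRR5 and the ACGTG core, on either strand, in PRR9. All 3 are the 300 bases before the annotated transcript start in TAIR10.1 from RefSeq, at chr3:17182742-17183041 (plus strand) for LUX, chr5:8358547-8358846 (minus strand) for PRR5 and chr2:19232307-19232606 (plus strand) for PRR9.
LUX: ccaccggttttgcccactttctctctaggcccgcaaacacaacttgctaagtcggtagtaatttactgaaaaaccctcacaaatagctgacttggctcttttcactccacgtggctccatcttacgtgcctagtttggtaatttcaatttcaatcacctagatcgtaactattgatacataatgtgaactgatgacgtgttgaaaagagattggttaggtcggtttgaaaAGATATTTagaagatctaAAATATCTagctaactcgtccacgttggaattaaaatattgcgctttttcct
PRR5: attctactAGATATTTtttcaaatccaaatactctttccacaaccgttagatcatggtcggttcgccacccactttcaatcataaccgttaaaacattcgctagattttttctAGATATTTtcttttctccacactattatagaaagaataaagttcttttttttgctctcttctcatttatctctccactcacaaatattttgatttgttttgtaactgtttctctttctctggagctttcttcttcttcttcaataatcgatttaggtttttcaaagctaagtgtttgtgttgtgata
PRR9: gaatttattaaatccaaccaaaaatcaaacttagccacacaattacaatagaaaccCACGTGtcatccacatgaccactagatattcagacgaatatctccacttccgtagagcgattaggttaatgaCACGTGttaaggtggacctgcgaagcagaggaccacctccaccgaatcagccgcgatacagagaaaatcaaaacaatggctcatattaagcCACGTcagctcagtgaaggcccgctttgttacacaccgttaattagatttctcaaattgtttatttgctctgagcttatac
LUX and PRR5 hold 2 evening elements each, and PRR9 holds 5 matches of ACGTG, of which 4 overlap in pairs as CACGTG. Only these are marked. The LUX window also holds 5 matches of ACGTG and 2 dehydration response elements. PRR5 holds 1 dehydration response element and 0 matches of ACGTG, and PRR9 holds 0 evening elements. The evening element stands in 5.91% of windows of tested genes and in 5 of the 38 windows of genes that rose (13.2%), and ACGTG in 26.3% and in 18 of 38 (47.4%). The W box core TTGAC, bound by WRKY factors, was at 49.1% and 50%. Among the 12 genes that fell, 4 held ACGTG, 1 the evening element and 5 the W box core. These are counts of letters in a window and carry no test.

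MLP328 (AT2G01520), a major latex protein relative of unknown role, had the largest rise of all called genes that met the naming rule. It read 145, 67.8 and 1678.4 in dehydrated plants against 2.59, 0 and 1, a log2 fold change of 6.42 ± 0.96 (SE, adjusted p = 0.018). All 3 dehydrated plants were above the standard plants and replicate 3, low for most other genes, was highest by far. The sum of root markers was also highest in that plant. PYK10 was at 906, 367 and 2949.2 against 85.4, 257 and 317, and the endodermal gene CASP1 at 4.3, 3.99 and 20.1 against 0, 0 and 1. Root markers did not all go this way. Of the 3 tested, 1 lay above and 1 below all standard plants in replicate 3. SCR was lower in every alternative setting (log2 difference -1.5 to -1.15) and was not called (adjusted p = 0.2). The part of root markers in the rise of MLP328 was not tested. A close relative, MLP329, neighbours it in the thaliana genome, so that reads may be split between them. MLP328 was the called gene with the lowest p without dehydration replicate 2 (log2 fold change 7.36, adjusted p = 0.0058).

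GSTU15 (AT1G59670), a glutathione S-transferase of the tau class, read 140, 279 and 145 against 5.18, 23.6 and 17 (log2 fold change 3.57 ± 0.71, SE, adjusted p = 0.037), with replicate 3 level with replicate 1. AT3G54000, annotated as a TIP41-like protein, read 171, 83.8 and 31.6 against 0, 3.78 and 5 (4.2 ± 0.71, SE, adjusted p = 0.018). Both genes separated the groups without overlap, which the naming rule requires.

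Among the falls, 2 genes encode ribosomal proteins. AT3G62870, of the L7Ae family, fell from 2660.1, 1342.2 and 1190.4 to 140, 254 and 390, a log2 fold change of -2.74 ± 0.52 (SE, adjusted p = 0.033). AT5G27850, of the L18 family, fell from 349, 275 and 283 to 33.3, 73.8 and 75.8 (-2.35 ± 0.47, SE, adjusted p = 0.037). Ribosomal protein genes occur as near copies in Arabidopsis, and the labels do not say how reads were divided among copies.

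EGY2 (AT5G05740), a chloroplast membrane protease, read 35.5, 13 and 16.3 against 580, 171 and 204 (-3.66 ± 0.76, SE, adjusted p = 0.042). SETH3, annotated as a sugar isomerase, read 4.3, 1.99 and 33.6 against 184, 87.8 and 64 (-3.42 ± 0.74, SE, adjusted p = 0.046). AT5G49700, a putative AT-hook protein, had the largest fall, to 0, 11 and 0.959 from 94.4, 34 and 52 (-3.75 ± 0.78, SE, adjusted p = 0.042). The other 3 falls of the naming rule, AT3G20920, AT5G03120 and AT3G19680, had log2 fold changes of -3.32, -3 and -2.41. In 8 of the 12 genes that fell, replicate 3 was the highest dehydrated plant, which for a fall is the plant nearest to the standard level. Standard replicate 1 was the highest standard plant for every fall of the naming rule, and 0 genes were called lower without it.

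The remaining 24 rises and 4 falls lie outside the naming rule, and those given here were picked after their values were seen. Signalling genes among them were the kinase AGC2-1, which oxidative signals induce, at 17.3 in replicate 3, 25.9 in replicate 2 and higher again in replicate 1, and listed at 0 in each standard plant (adjusted p = 0.018), CIPK26, a kinase that partners calcium sensors, at 87.1, 191 and 107 against 14.2, 23.6 and 39 (adjusted p = 0.04), and NAC102, a NAC factor, at 730, 368 and 235 against 69.9, 43.4 and 82 (adjusted p = 0.037). CIPK26 was lowest in replicate 1 and the other 2 in replicate 3. The peptide gene RGF9 read 1910.1, 565 and 764 against 91.9, 203 and 152 (adjusted p = 0.048).

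DIP2 had the next largest log2 fold change after MLP328, 5.54 ± 1.2 (SE, adjusted p = 0.046), and is the called gene whose groups overlapped, with 1187.4, 439 and 13.4 against 18.1, 0 and 0. Some rises were nearly level over the dehydrated plants, such as CDC5, a part of the splicing machinery, at 181, 170 and 166 against 40.1, 27.4 and 38 (adjusted p = 0.046), and MIM, a protein of DNA repair, at 22.6, 27.9 and 31.6 against 1.29, 0 and 3 (adjusted p = 0.046). For these 2 genes replicate 3 did not stand apart. Among the falls, ARGOS, a promoter of organ growth, read 0, 0 and 2.88 against 32.3, 17 and 27 (adjusted p = 0.022), and the bHLH gene ALC was listed at 0 in each dehydrated plant and at 22, 19.8 and 20 in standard plants (adjusted p = 0.026).

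Water channels, growth genes and photosynthesis genes had no called member. The 14 aquaporins in the files summed to 6442.4, 6398.1 and 7951.7 in dehydrated and 19174.3, 11575.1 and 12158.2 in standard plants, so that every dehydrated plant was lower. DELTA-TIP, a vacuolar channel, read 116, 147 and 324 against 2609.6, 1357.3 and 1972.1 (log2 difference -3.42 ± 0.89, SE, adjusted p = 0.082). PIP3 read 976, 767 and 1191.2 against 2419.8 to 2595.4 (adjusted p = 0.15). Of the 12 tested, 4 had an unadjusted p under 0.05 and a lower value, beside 8.53% of all genes, and the median log2 fold change was -0.38, or -0.83 without dehydration replicate 3.

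XTH4, a wall-loosening transglycosylase, was at 212 to 245 in dehydrated and 518 to 1139.5 in standard plants (log2 difference -1.79, adjusted p = 0.081), and the 13 tested wall-loosening genes had a median of -0.36, which ranged with 1 plant left out from -1.12 (dehydration replicate 3) to -0.03 (standard replicate 3). Auxin genes had a median of -1.05 over 7 tested, and -0.53 without standard replicate 2. Floral and apex markers, which come from growing tissue, were lower in dehydrated plants as given above, and their part in these values was not tested. PSBO1, a protein of the oxygen-evolving complex, read 2600.6, 4876.2 and 4397.4 against 9937.8, 14857 and 16136.3 (adjusted p = 0.087), while the photosystem I gene PSAG lay the other way at 11579.2, 6547.8 and 8489.8 against 4994.1, 4082.4 and 2758.7 (adjusted p = 0.27). The 22 photosynthesis genes had a median of -0.18, which ranged with 1 plant left out from -0.49 (standard replicate 1) to -0.1 (dehydration replicate 2). In these bulk samples fewer cells of a type and less RNA per cell cannot be told apart.

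Stomatal and guard cell genes (11 tested), cuticle genes (6), flavonoid genes (9) and genes of darkness and sugar starvation (11) had 0 calls and medians of 0.65, -0.05, 0.01 and 0.48. With 1 plant left out these ranged from 0.16 to 0.88, from -0.36 to 0.08, from -0.47 to 0.4 and from -0.35 to 0.72, so that the last 3 medians have no settled sign. PAP1, the anthocyanin regulator, read 62.4, 86.8 and 25.9 against 9.06, 2.83 and 1 (adjusted p = 0.061). DIN11, a gene known from darkened leaves, read 41.9, 126 and 29.7 against 6.47, 10.4 and 3 (adjusted p = 0.064). Neither overlapped. Of 5 reference genes tested 0 were called and the median was 0.27 (-0.13 to 0.86 with 1 plant left out), with TIP41 at 224, 156 and 216 against 55.6, 56.6 and 104 (adjusted p = 0.2).

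Cold plants of the same cross allow a contrast in which dim light and 1 h of treatment are shared and the temperature and the lifting from agar are not. Dehydration against cold called 0 of the 11556 genes (0%), while 1032 had an unadjusted p under 0.05 (8.93%). This comparison shares the dehydrated plants with the one against standard. NCED3 read 7.12, 2.64 and 1.85 in cold plants, all below the lowest dehydrated plant (log2 difference 3.4 ± 0.79, SE, unadjusted p = 0.00034, adjusted p = 0.2). RD29A read 95.6, 66.9 and 199 in cold plants and HSFB2A 34.6, 8.8 and 43.6. PEN3 and A/N-InvC were far above the standard plants in cold as well, at 642 to 1152 and 232 to 331.

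Halleri-labelled plants give the same treatment in other plants. Their libraries also entered the scaling and the shared estimate of the spread behind the lyrata-labelled calls, so the calls of the hybrids are not independent. Low whole numbers are missing from all of their dehydrated libraries, whose values were multiplied about 1.5-, 1.58- and 1.25-fold in replicates 1, 2 and 3. No such gaps appear in their standard plants. Depth may thus go with treatment there, and its part in the values below was not tested. In the halleri-labelled plants 304 of the 11556 genes were called (2.63%), 209 higher (1.81%) and 95 lower (0.822%). Of the 38 genes that rose in the lyrata-labelled plants, 37 had a log2 fold change of the same sign and 16 were also called higher, beside 50.3% and 1.81% of all genes. Of the 12 that fell, 9 had the same sign and 1, AT5G03120, was called lower. PRR5 read 198, 177 and 94.1 against 0, 4.52 and 1.78 in the halleri-labelled plants (log2 fold change 5.37, adjusted p = 7.6e-05). NCED3 was at 176, 141 and 94.1 there, with each standard plant listed at 0, and DREB2A was at 50.7, 54.5 and 65.6 against 1.16, 0 and 4.45. RD29A was at 751, 935 and 391 against 246, 43.4 and 59.7 and just missed the threshold (adjusted p = 0.052). The highest halleri-labelled dehydrated plant was 1.87-fold above the lowest for NCED3, 1.29-fold for DREB2A and 2.39-fold for RD29A, where the lyrata-labelled plants spanned 25.9-fold, 12.4-fold and 15.1-fold. Other called genes went the other way, with 7.86-fold against 1.66-fold for LUX and 2.39-fold against 1.09-fold for CDC5. Of the 45 called genes above 0 in all of these plants, 32 spanned more in the lyrata-labelled and 13 in the halleri-labelled plants. These genes were chosen on the lyrata-labelled contrast and the same count over all genes was not made, so the counts carry no test. Over all genes tested the median SD of log2 values was 0.564 in lyrata-labelled and 0.508 in halleri-labelled dehydrated plants.

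The difference between the hybrids, the halleri-labelled minus the lyrata-labelled change, was called for 0 genes, and 1131 had an unadjusted p under 0.05 (9.79%). MLP328 and EGY2 stood furthest apart among the named genes. MLP328 read 207, 514 and 182 in dehydrated and 138, 108 and 53.4 in standard halleri-labelled plants (interaction -4.9 on the log2 scale, unadjusted p = 0.0018, adjusted p = 0.3). EGY2 read 131, 86.2 and 106 against 77.5, 58.7 and 39.2, above the standard plants where the lyrata-labelled plants were below (interaction 4.55, unadjusted p = 0.00041, adjusted p = 0.27).

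Each allele was also fitted alone. Of the 38 genes that rose, 17 were called on the thaliana allele and 29 on the non-thaliana allele, beside 0.234% and 0.424% of all genes called higher, and of the 12 that fell 3 and 11 were called, beside 0.0606% and 0.467% called lower. The genes had been chosen on the sum of the alleles, so these counts carry no test. All 50 had the same sign of change on both alleles, but some had almost no thaliana signal. The median over all genes tested was 0.12 for the thaliana and -0.12 for the non-thaliana allele. Dehydration replicate 2 had the high thaliana share given above, and its part in these medians was not tested. PEN3 changed by 3.85 and 3.77, RD29A by 4.09 and 3.47, and PRR5 by 3.94 and 3.34 on the log2(value + 1) scale of the thaliana and the non-thaliana allele. The change in the ratio of the alleles was called for 2 of 11312 genes (0.0177%), none of them among the 50, where the lowest adjusted p was 0.15. CHAT differed most among the named genes. Its thaliana allele read 0, 0.997 and 0.959 in dehydrated plants and 0 in each standard plant, and its non-thaliana allele 127, 53.9 and 31.6 against 2.59, 5.66 and 6. The log2 fold change of the non-thaliana allele was 3.47 (ratio change 2.85, adjusted p = 0.2).

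**Figure D4:**
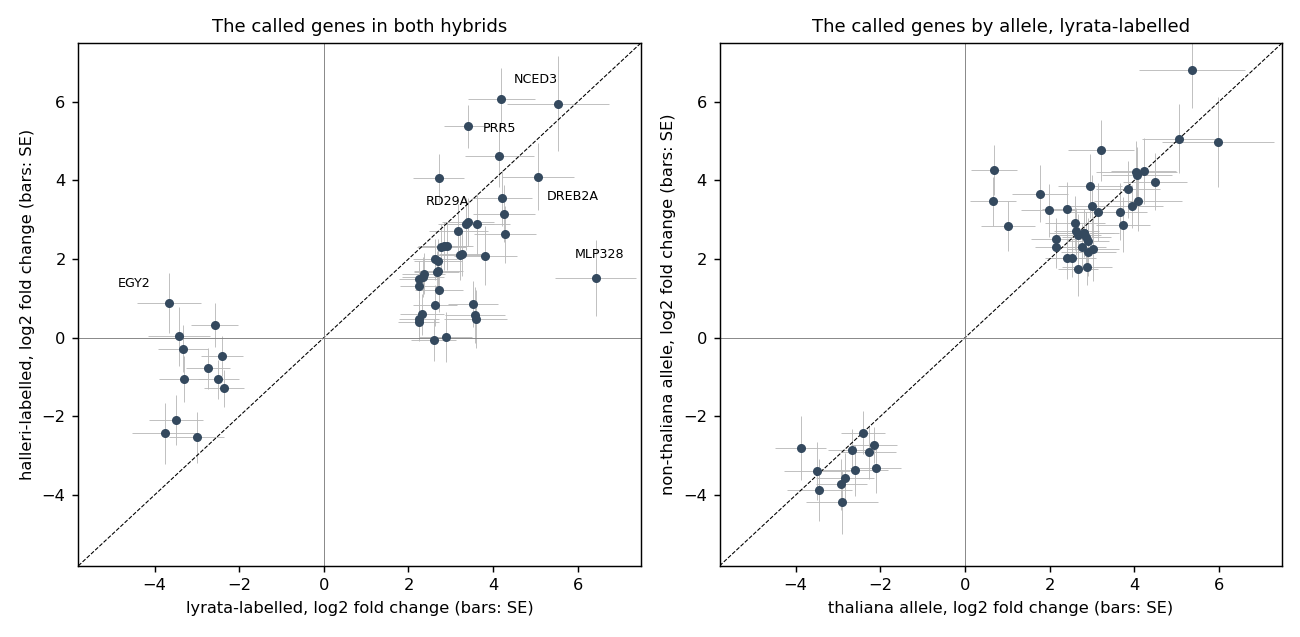
Log2 fold changes with SE of the 50 called genes, on the left in lyrata-labelled (x) against halleri-labelled plants (y), on the right for the thaliana (x) against the non-thaliana allele (y) of the lyrata-labelled plants, with a dashed line of equality. Where a group is listed at 0, as for DREB2A, the plotted value depends on the amount added before log2. EGY2 is at -3.66 and 0.89 on the left, and no gene changes sign between alleles on the right.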

How the data were processed

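RNA-seq of 18 libraries (2 hybrids, 3 conditions, 3 plants each) was read from the deposited tables, which give 1 score a gene and allele. The deposited score is a whole number, scaled by the authors to a near-equal total with 1 added to each allele value, as the values themselves show; it is not a raw count, so no count model was used. The submitters' processing notes name TopHat2, SAMtools, DESeq2 and TAIR10 without versions or settings. Neither the handling of near-identical gene copies nor the use of strand is given in the sources used here.

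The 1 was taken off each allele, the alleles were summed and libraries were scaled by trimmed mean of M-values. limma 3.58.1 (R 4.3.3; trend and robust options) was fitted to log2(value + 2) of all 18 libraries, which share 1 estimate of the spread, over genes with 10 or more in at least 3 of the 6 libraries compared; p-values were adjusted by Benjamini-Hochberg over all genes tested. Allele ratios were fitted over the lyrata-labelled libraries with 1 added to each allele. The labels call the replicates biological, and p-values measure the spread between these plants. By the naming rule the text takes 12 rises and 12 falls at most, the largest called ones whose groups do not overlap and whose higher group averages 50 or more (12 and 8 existed), every called list member, and in each list no more than 4 genes, those of lowest p. The other genes with values (TOC1, GI, CCA1, LHY, RAB18, P5CS1, CBF2, CASP1 and STM) were chosen after their values were seen. The 22 lists and the genes were chosen with earlier results of these data known. Gene names come from the TAIR10.1 annotation, which matched 16401 of 16419 models. Same-numbered plants did not deviate together (correlations -0.03, 0 and -0.06), so replicate numbers were not used as pairs. Alternatives were other scalings, filters, added amounts, library weights, a replicate block and leaving out each plant.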

Additional observations from a re-analysis of the deposited data

How the results depend on the processing

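When 1 plant was left out, the 50 calls of dehydration against standard ranged from 0 to 200, dehydration against cold from 0 to 18, the halleri-labelled comparison from 74 to 830 (304 in all plants), the difference between the hybrids from 0 to 155 and the allele ratio from 0 to 7 (2 in all plants). For the first count, omission of dehydration replicates 1, 2 and 3 gave 0, 6 and 200 calls and omission of standard replicates 1, 2 and 3 gave 18, 48 and 0, with a group of 2 plants sharing the spread of the other groups. All 50 called genes kept their sign in each setting that tested them, and 0 were called in all of them. The kept sign is no support, because apart from DIP2 their groups did not overlap and leaving out a plant could not reverse it. A mean of 50 or more called 23 genes (halleri-labelled 173), library weights 378 (halleri-labelled 973, against cold 48, between hybrids 27), the 6 libraries alone 0 (the 6 halleri-labelled ones 83), and the non-thaliana allele alone 103, with 49 higher and 54 lower. The filter over all libraries called 3 genes against cold, and 10 added before log2 called 1 between hybrids. With 0.5 added to each allele the ratio was called for 1 gene, and centred per library for 0. Chosen after seeing the data, leaving out dehydration replicate 2 and standard replicate 1 together left 4 calls. The replicate block called 22 genes, 20 of them among the 50, and 0 for the allele ratio; replicate numbers are shared in the labels but the plants did not pair (correlations -0.03, 0 and -0.06). Scaling as deposited moved the median difference between hybrids over all genes from 0.001 to -0.158. Genes named for their lists and not called changed sign near 0 in 12 cases. With 1 plant left out, CUT1 ranged from -0.39 to 0.8, SHR from -0.06 to 0.59, HAB1 from -0.03 to 1.22 and TPS10 from 0 to 1.58, and library weights gave CUT1 -0.07 and SHR -0.04. Without the 2 plants together CUT1 was at -0.69, TPS10 at -0.15, KCS1 at -0.07 and YLS8 at 0.11. Among the 6 lyrata-labelled libraries compared, depth limits low genes most in dehydration replicate 1, whose values were multiplied about 1.46-fold. The cause of the differences between plants was not tested.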
